A study of Mus musculus with 3 samples.

Results

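Integrins and laminins were followed by RNA-seq in sorted digit cells of mouse embryos, at the time when finger joints form. The members were all gene symbols of the integrin alpha chains (Itga), the integrin beta chains (Itgb) and the laminin alpha, beta and gamma chains (Lama, Lamb, Lamc). This gave 37 genes of the 23284 listed, 26 integrin and 11 laminin chains, chosen by name and not by their values. There were 3 libraries, 1 per cell population, all from mice with the background C57/bl6. The Sox9+ library came from digit cells at E13.5 (embryonic days) that carried the reporter allele Sox9-eGFP/+, and the labels do not name the limb. The Lgr5+ library, labelled interzone, and the Lgr5- library, labelled non-interzone, came from forelimb digits at E14.5 with the allele Lgr5-eGFPCreERT2/+, which cells of both libraries carry by their labels. Cells were separated by GFP and not by position, and the number of embryos or cells pooled for a library is not given in the sources used here. No group had a replicate, so no value below has an error, no test was run, and each difference is one between libraries. Sox9+ and Lgr5 cells also differ in embryonic day and reporter line, which cannot be told apart from the cell population.

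Integrins are cell surface receptors made of an alpha and a beta chain that hold cells to the extracellular matrix and signal from it. The alpha chain sets most of the ligand choice: alpha1, alpha2, alpha10 and alpha11 bind collagens, alpha5, alpha8 and alphav bind the RGD sequence of fibronectin and related proteins, and alpha3, alpha6 and alpha7 bind laminins. Most of these alpha chains pair with beta1, so the supply of alpha chains shapes which receptors a cell carries. Laminins are trimers of an alpha, a beta and a gamma chain and form the sheet of basement membranes around vessels, muscle, nerve and epithelium. In cartilage, integrin alpha10 is known as a collagen receptor of chondrocytes, and alpha11 as a collagen receptor of fibroblasts and mesenchymal cells of perichondrium, ligament and tendon.

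Of the 37 members, 3 differed by at least 2-fold between any pair of libraries: Itga11, Itga10 and Itgb7. A fold here is the ratio of FPKM + 1 (FPKM being fragments scaled by transcript length and by library size), and a gene was measured in a pair when its higher library reached 1 FPKM. Promoter sequence of these 3 genes is shown because they carry all the calls in the family. Each stretch covers 170 bases, from 200 to 31 bases before the annotated start, read 5′ to 3′ on the gene's own strand, from RefSeq on build GRCm38.p6, at chr9:62677655-62677824 (Itga11, plus strand), chr3:96645384-96645553 (Itga10, plus strand) and chr15:102231966-102232135 (Itgb7, minus strand). The start is that of RefSeq, which for Itga11 and Itgb7 differs from the gene start in the positions given further below. Capitals mark the E-box CANNTG, the binding sequence of bHLH factors.
Itga11: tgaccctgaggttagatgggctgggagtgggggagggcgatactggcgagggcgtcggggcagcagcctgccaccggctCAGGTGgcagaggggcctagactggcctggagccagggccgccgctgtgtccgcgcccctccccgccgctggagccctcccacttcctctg
Itga10: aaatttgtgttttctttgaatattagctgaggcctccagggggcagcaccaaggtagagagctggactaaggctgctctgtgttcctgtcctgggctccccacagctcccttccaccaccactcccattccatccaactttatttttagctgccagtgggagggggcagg
Itgb7: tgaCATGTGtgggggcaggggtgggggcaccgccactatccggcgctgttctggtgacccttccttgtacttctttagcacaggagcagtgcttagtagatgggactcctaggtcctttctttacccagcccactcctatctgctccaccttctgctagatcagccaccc
Itga11 held 1 E-box 121 bases before the start, Itgb7 held 1 at 197 bases before it, and Itga10 held none in this window. An E-box stood in 53% of all 32851 promoter windows of this length, so its presence is common. GGGCGG (the GC box, in 26.4% of all windows), TATAAA (7.46%), CCAAT (26.2%) and AACAAT (a Sox core, 6.67%) were searched on both strands and not found in the 3 windows. The Itga11 window was richest in G and C, at 72.4%, against 57.1% for Itgb7, 53.5% for Itga10 and a median of 52.9% over all windows. These matches describe the letters only, since no binding or chromatin was measured.

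The 3 libraries were alike in breadth, with 11924 to 12002 genes at 1 FPKM or more and summed FPKM of 534025 to 593871. The reporter gene Lgr5 stood at 26.8 FPKM in Lgr5+ cells, 1.36 in Lgr5- cells and 3.48 in Sox9+ cells. Gdf5, the growth factor of the interzone, was listed at 614.8, 71.7 and 59.9 FPKM for these libraries. Sox9 stood at 332 FPKM in Lgr5+ cells, 147.1 in Lgr5- cells and 254.7 in Sox9+ cells, so Lgr5+ cells, and not the cells gated on the Sox9 reporter, had most RNA of this cartilage factor. In bulk libraries such as these, fewer cells of a type and less RNA per cell cannot be told apart.

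**Figure D1:**
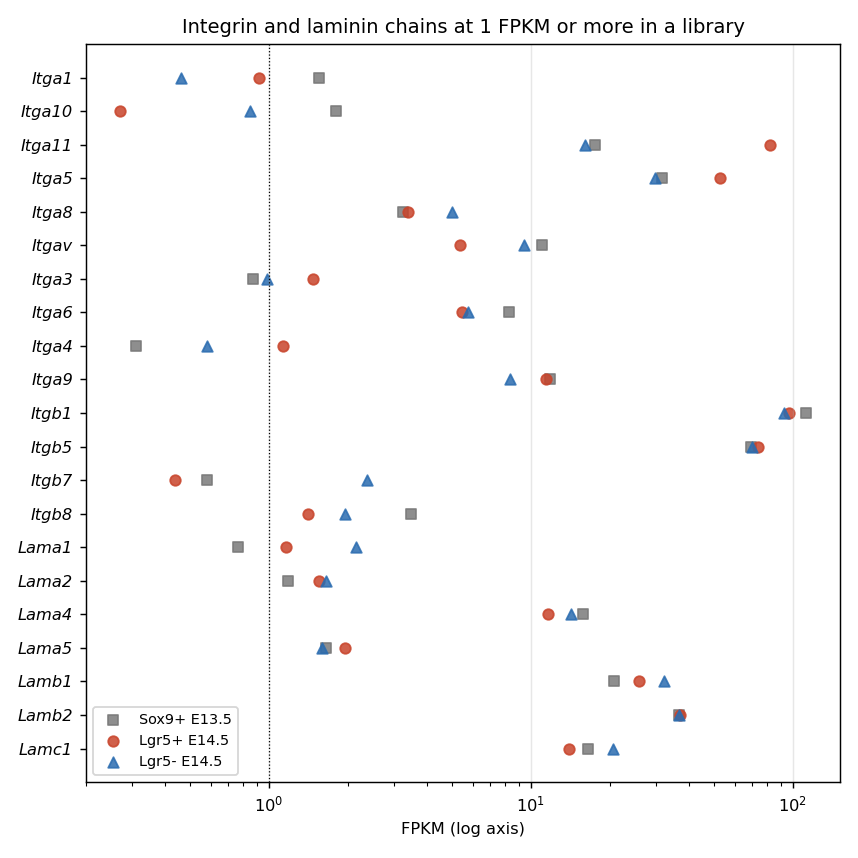
FPKM (log axis) of the 21 integrin and laminin genes that reached 1 FPKM in at least 1 library, with 1 point per library and a dotted line at 1 FPKM. Itga11 sits at 81.9 FPKM in Lgr5+ cells, apart from 16 and 17.5 FPKM in the other two, whereas the points of Itgb1, Itgb5 and Lamb2 nearly coincide.

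A small set of chains made up most of the family's RNA in all 3 libraries. Of the 37 members, 21 reached 1 FPKM in at least 1 library, 15 reached it in all 3, and 8 stood at 10 FPKM or more in all 3. The share at 1 FPKM in any library was 56.8%, close to the 54.8% of all listed genes. Itgb1 was the most abundant member in each library, at 112.5 FPKM in Sox9+, 97.1 in Lgr5+ and 92.4 in Lgr5- cells. Itgb5 came next in the Sox9+ and Lgr5- libraries, while Itga11 took that place in Lgr5+ cells. After Itgb1 and Itgb5 came Itga5, Lamb2, Lamb1, Lamc1 and Lama4, in an order that varied between libraries. Itga11 stood among them at place 6 in the Sox9+ library and place 7 in the Lgr5- library. Without replicates it cannot be said which neighbours in that order differ beyond their spread. The 16 members below 1 FPKM in every library included Itga2, Itga2b, Itga7, Itgad, Itgae, Itgal, Itgam, Itgax, Itgb2, Itgb3, Itgb4, Itgb6, Lama3, Lamb3 and Lamc3, and the highest value among the 16 was 0.97 FPKM, that of Itgb2 in Lgr5- cells. Itgad and Itgax, both leukocyte chains, were listed at 0 in all 3.

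Setting Lgr5+ against Lgr5- cells asks how cells labelled interzone differ from other digit cells of the same day and reporter line. Itga11 was higher in Lgr5+ cells and Itgb7 lower, and the other 17 of the 19 measured members lay within 2-fold. The single higher member compares with 3.64% of the 12438 measured genes called higher, and the single lower one with 1.89% called lower, so with 19 genes measured these counts lie near the background. The median log2 ratio of the measured members was −0.06, beside 0.08 over all measured genes. At 1.5-fold, Itga5 joined the higher members, 2 in all beside 9.47% of all genes, and Itgav the lower ones, 2 in all beside 5.96%. Among members within 2-fold, Itga5 had the largest difference.

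Against Sox9+ cells of the day before, Lgr5+ cells were compared with a younger digit population sorted on the Sox9 reporter. Itga11 was again higher, Itga10 was lower, and the other 18 of 20 measured members lay within 2-fold. Genes called higher were 4.33% of the 12492 measured and genes called lower 3.96%. The members' median log2 ratio was 0.03, beside 0.06 over all measured genes. At 1.5-fold, 3 members were higher (Itga11, Itga5 and Itga4, beside 12.6% of all genes) and 3 lower (Itga10, Itgav and Itgb8, beside 9.9%). Itgav was nearest to 2-fold among the rest.

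Between Lgr5- and Sox9+ cells, Itgb7 was the 1 member of 19 past 2-fold, and it was higher in Lgr5- cells. Of 12482 measured genes 3.08% were called higher and 4.94% lower. The members' median log2 ratio was −0.09, beside −0.01 over all measured genes. At 1.5-fold, 3 members were higher (Itgb7, Lama1 and Lamb1, beside 9.5% of all genes) and 3 lower (Itga1, Itga10 and Itgb8, beside 12.8%). The 3 comparisons share libraries in pairs, so the 2 calls of Itga11 both rest on the same Lgr5+ library, and the 2 calls of Itgb7 on the same Lgr5- library.

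**Figure D2:**
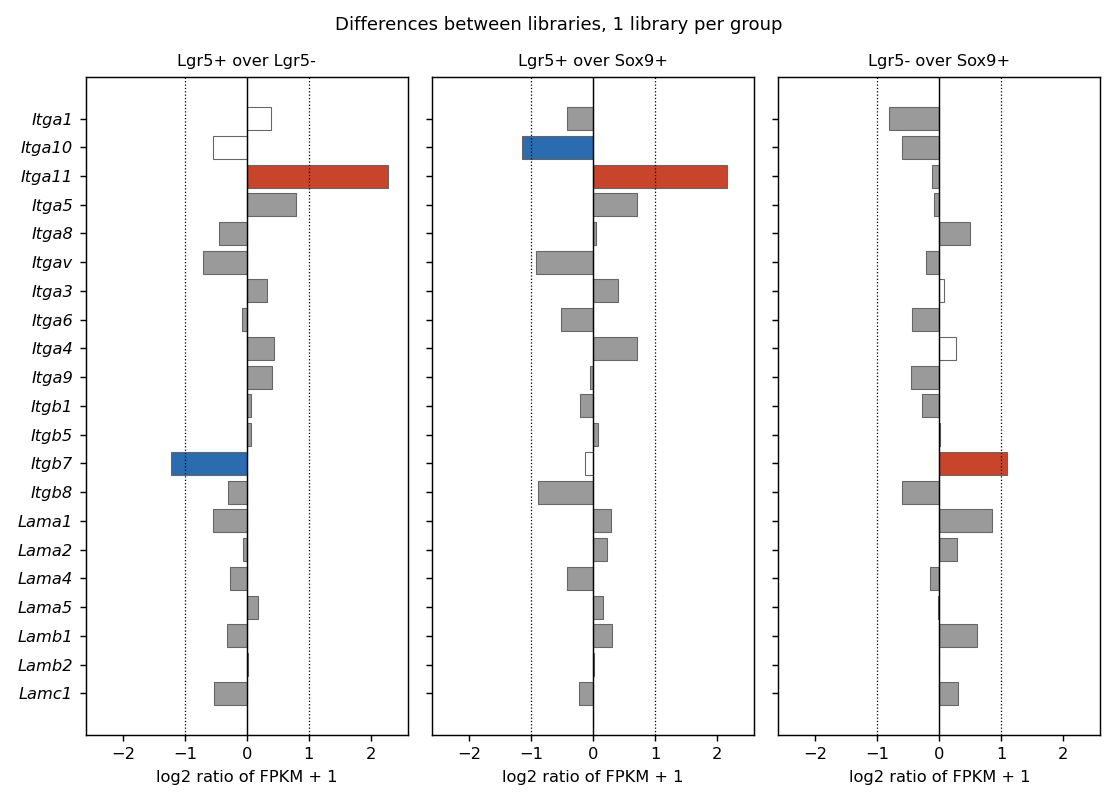
Log2 ratio of FPKM + 1 for the same 21 genes in the 3 pairs of libraries, with dotted lines at 2-fold. Red bars are at least 2-fold higher, blue bars at least 2-fold lower, grey bars within 2-fold and white bars are pairs in which the gene stayed below 1 FPKM in both libraries; Itga11 reaches 2.28 and 2.16 in the pairs with the Lgr5+ library.

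The collagen-binding alpha chains held the widest contrast in the family. Itga11 (chromosome 9, 62677826 to 62783982, plus strand), whose product pairs with beta1 to bind fibrillar collagens, stood at 81.9 FPKM in Lgr5+ cells, 16 FPKM in Lgr5- cells and 17.5 FPKM in Sox9+ cells. The Lgr5+ library was thus high alone, and the other two nearly equal. The difference was 4.86-fold over the Lgr5- and 4.47-fold over the Sox9+ library. In order of log2 ratio this was place 64 from the top of 12438 measured genes, and place 73 of 12492. Between the Lgr5- and Sox9+ libraries Itga11 differed by 1.09-fold.

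Itga10 (chromosome 3, 96645584 to 96664519, plus strand), the chondrocyte collagen receptor chain, was low in all libraries and ordered differently. It stood at 1.81 FPKM in Sox9+ cells, 0.85 in Lgr5- cells and 0.27 in Lgr5+ cells. That was 2.21-fold lower in Lgr5+ than in Sox9+ cells and 1.52-fold lower in Lgr5- than in Sox9+ cells. In the pair of Lgr5 libraries it stayed below 1 FPKM and was not called. Its exons overlap those of Gm42957, an annotated gene on the same strand, so the split of reads between them is uncertain. Itga1, a collagen receptor chain of many mesenchymal and muscle cells, followed Itga10 only in being highest in Sox9+ cells, at 1.56 FPKM against 0.92 in Lgr5+ and 0.46 in Lgr5- cells. Exons of Itga1 overlap those of Gm49395 on the same strand, so the same limit holds for it. Itga2, the chain of epithelial and platelet collagen receptors, stayed between 0.1 and 0.27 FPKM. Since FPKM is scaled by length, levels can be set side by side between genes. On that scale Itga11 exceeded Itga10 by 9.68 times in Sox9+ cells, 18.9 times in Lgr5- cells and 303 times in Lgr5+ cells, the last resting on the low value of 0.27 FPKM.

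The collagens that these chains bind were abundant in all 3 libraries. Col1a1, a fibrillar collagen of fibrous tissue and bone, stood at 1198 FPKM in Lgr5+, 997.9 in Lgr5- and 769.2 in Sox9+ cells. Col3a1, another fibrous tissue collagen, was listed at 341.7, 416.3 and 367.7 FPKM. Neither differed by 2-fold in any pair. Col2a1, the cartilage collagen, was 2.35-fold lower in Lgr5+ than in Sox9+ cells, and 3.78-fold lower in Lgr5- cells.

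Some lists of tissue markers were highest in Lgr5+ cells, as Itga11 was, and others were not. The 6 tendon genes (Scx, Tnmd, Mkx, Kera, Fmod and Six2) summed to 761.1 FPKM in Lgr5+, 218.5 in Lgr5- and 134.7 in Sox9+ cells, and all 6 were at 1 FPKM or more in each. The 8 interzone genes (Gdf5, Lgr5, Col22a1, Barx1, Osr1, Osr2, Dkk3 and Erg) summed to 1132, 229.7 and 224.8 FPKM in that order. Lgr5 is the reporter gene on which the Lgr5 libraries were sorted, and Gdf5 alone stood at 614.8 FPKM in Lgr5+ cells. Muscle markers (12 genes) summed to 113.9, 31.4 and 23.7 FPKM, with only Pax7 in Sox9+ cells at 0, and 12 macrophage markers to 97.3, 54.8 and 12.9 FPKM, with Aif1 and Fcgr1 at 0 in Sox9+ cells. Of the macrophage markers, Lyz2 and Ptprc were instead highest in Lgr5- cells. The sum of epidermal markers (14 genes) did not follow Itga11, at 69.5, 29.3 and 70.7 FPKM with none at 0, but the genes were split. Krt5, Krt14, Krt15, Trp63, Cdh1, Sfn, Krtdap and Dsp were highest in Lgr5+ cells. Krt8, Krt18, Krt19 and Perp were highest in Sox9+ cells, where Krt18 alone stood at 26.9 FPKM, and Epcam and Grhl3 in Lgr5- cells. Nor did the sum of 10 cartilage markers, at 3226 FPKM in Lgr5+, 2002 in Lgr5- and 7456 in Sox9+ cells with none at 0. Col2a1 alone stood at 5304 FPKM in Sox9+ cells. It was highest there, as were Col9a1, Col11a1, Acan, Matn1, Matn3 and Comp. Sox9, Sox5 and Sox6 were highest in Lgr5+ cells, Sox5 at 35.1 FPKM against 10 in Lgr5- and 21.3 in Sox9+ cells. The part of the cell types behind these lists in the Itga11 result was not tested. Itga7, the laminin receptor chain of muscle fibres, stayed at 0.32 FPKM or lower in each library.

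Of the alpha chains that bind RGD, Itga5 and Itgav leaned in opposite directions within 2-fold. Itga5 (chromosome 15, 103344286 to 103366763, minus strand), the main fibronectin receptor chain, stood at 52.7 FPKM in Lgr5+, 29.8 in Lgr5- and 31.7 in Sox9+ cells, 1.74-fold and 1.64-fold higher in Lgr5+ cells. Itgav, which pairs with several beta chains and can release TGF-beta from its latent form, was listed at 5.39, 9.39 and 11 FPKM for these, 1.63-fold and 1.88-fold lower in Lgr5+ cells. The level of Itga5 was 9.78 times that of Itgav in Lgr5+ cells, against 3.18 times in Lgr5- and 2.87 times in Sox9+ cells. Itga8, the chain that binds nephronectin, was highest in Lgr5- cells, at 5 FPKM against 3.41 in Lgr5+ and 3.26 in Sox9+ cells. Itga2b, the platelet chain, reached 0.62 FPKM at most. Of 8 platelet genes, 2 were at 1 FPKM or more in each library (Pf4 and Gp1bb), and Ppbp stood at 0.08 FPKM or lower.

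Laminin-binding alpha chains were modest and close between libraries. Itga6, the laminin receptor chain of epithelia and many stem cells, was the main one, at 8.24 FPKM in Sox9+, 5.44 in Lgr5+ and 5.78 in Lgr5- cells. Itga3, a receptor chain for epithelial laminins, was listed at 0.87, 1.47 and 0.98 FPKM for these. Itgb4, the partner of Itga6 in hemidesmosomes of the epidermis, stayed at 0.51 FPKM or lower, although keratin genes were detected in all 3 libraries. Krt5 (12.6 FPKM), Krt14 (6.76 FPKM) and Krt15 (7.81 FPKM) were highest in Lgr5+ cells. Krt8 (5.32 FPKM), Krt18 (26.9 FPKM) and Krt19 (2.1 FPKM) were highest in Sox9+ cells. Itga9, a receptor chain for tenascin-C and other ligands, stood at 11.8 FPKM in Sox9+, 11.4 in Lgr5+ and 8.32 in Lgr5- cells. Itga4, which binds fibronectin and Vcam1, was highest in Lgr5+ cells at 1.13 FPKM, against 0.58 in Lgr5- and 0.31 in Sox9+ cells. None of these chains differed by 2-fold in a pair in which it was measured. Itgb4 was measured in no pair, and Itga3 and Itga4 were not measured between the Lgr5- and Sox9+ libraries. With 0.1 FPKM added in place of 1, Itga4 passed 2-fold between the Lgr5+ and Sox9+ libraries.

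The partner chain Itgb1 did not follow Itga11. Itgb1 (chromosome 8, 128685654 to 128733200, plus strand), the common partner of the collagen, fibronectin and laminin receptor chains, differed by 1.05-fold between the Lgr5 libraries. Itgb5, which pairs with alphav and binds vitronectin, stood at 69.5, 73.7 and 70.2 FPKM in the Sox9+, Lgr5+ and Lgr5- libraries and varied by 1.06-fold at most. The 9 alpha chains known to pair only with beta1 summed to 152.5 FPKM in Lgr5+ cells, 1.57 times the level of Itgb1. In the Sox9+ library they summed to 68.9 FPKM, 0.61 times Itgb1, and in Lgr5- cells to 61.9 FPKM, 0.67 times Itgb1. These are ratios of RNA and not of protein. Itgb8, a partner of alphav in the activation of latent TGF-beta, was highest in Sox9+ cells, at 3.48 FPKM against 1.41 in Lgr5+ and 1.96 in Lgr5- cells, and the difference of 1.86-fold between the Sox9+ and Lgr5+ libraries fell short of a call.

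Itgb7 (chromosome 15, 102215995 to 102231944, minus strand), a beta chain of lymphocytes and mast cells, stood at 2.37 FPKM in Lgr5- cells, 0.44 in Lgr5+ and 0.58 in Sox9+ cells. The Lgr5- library was high alone, by 2.34-fold over the Lgr5+ and 2.13-fold over the Sox9+ library. Other leukocyte chains were lower still. Itgb2 stood at 0.97 FPKM in Lgr5- cells against 0.1 in Lgr5+ and 0.04 in Sox9+ cells. Itgal (0.25, 0.16 and 0.01 FPKM in that order) and Itgam (0.27, 0.21 and 0.01 FPKM) were close between the Lgr5 libraries. Exons of Itgam overlap those of Gm49368 on the same strand, so its share of the reads is uncertain. Itgae was highest in Lgr5+ cells, at 0.13 FPKM against 0.11 in Lgr5- cells. Markers of mast cells and neutrophils, lists added after these values were seen, summed highest in Lgr5- cells. The 12 macrophage markers summed highest in Lgr5+ cells, at 97.3 FPKM against 54.8 in Lgr5- cells, but the genes were split. Lyz2 (13.7 FPKM in Lgr5- against 7.48 in Lgr5+ cells) and Ptprc (0.55 against 0.43 FPKM) were highest in Lgr5- cells. The others were highest in Lgr5+ cells. The 8 mast cell genes summed to 43.6 FPKM in Lgr5- cells, 9.53 in Lgr5+ and 4.4 in Sox9+ cells. The protease genes Cpa3 (15.6 FPKM) and Cma1 (12.4 FPKM) led in Lgr5- cells, and Fcer1a was at 0 in all 3. Mcpt4 and Ms4a2 were at 0 in Lgr5+ cells, and Mcpt4, Tpsb2 and Ms4a2 in Sox9+ cells. The 8 neutrophil genes summed to 20 FPKM in Lgr5- cells and to 0.97 and 0.12 FPKM in the Lgr5+ and Sox9+ libraries, where 6 and 7 of them were at 0. The 9 red blood cell genes summed to 3978 FPKM in Lgr5- cells against 150.3 in Lgr5+ and 141.2 in Sox9+ cells, with Hbb-bh1 at 0 in Lgr5+ cells. The part of such blood cells in the Itgb7 result was not tested.

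**Figure D3:**
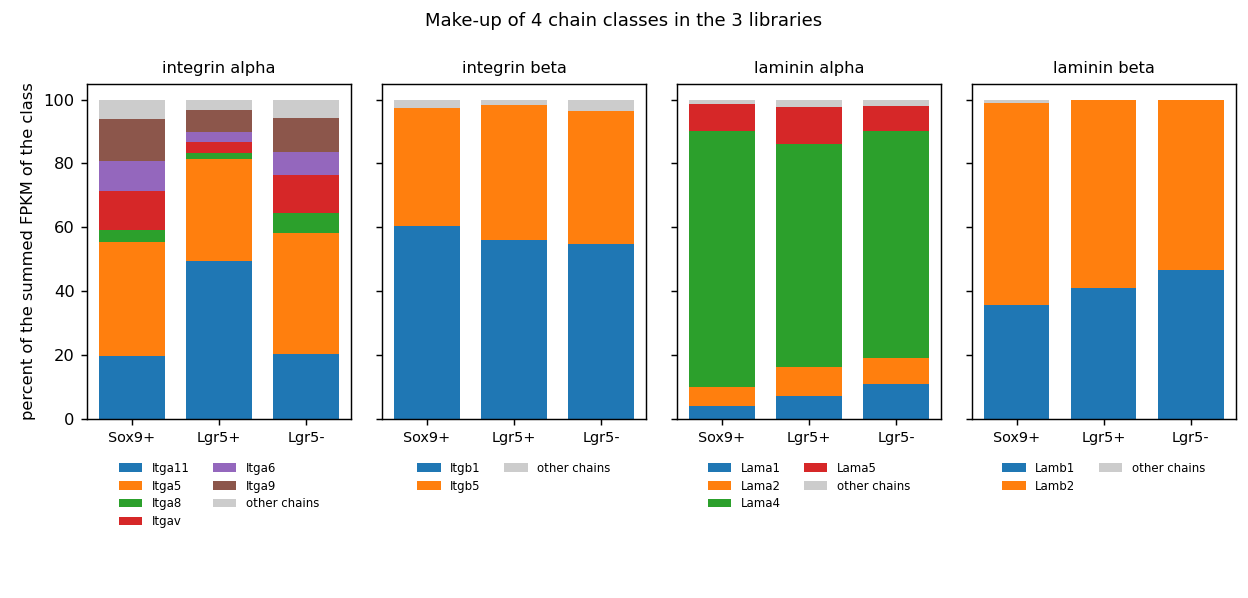
Stacked bars of the share of each chain in the summed FPKM of its class (percent, from 0), for 4 chain classes and 3 libraries, with chains under 3% in every library pooled as other chains. Itga11 takes 49.5% of the integrin alpha sum in Lgr5+ cells, against 20.3% in Lgr5- and 19.7% in Sox9+ cells, while the other 3 classes keep the same leading chain throughout.

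Seen as shares of a class, the integrin alpha chains were rearranged in Lgr5+ cells and the other classes kept their leading chain. All 18 alpha chains summed to 165.5 FPKM in Lgr5+ cells, 78.9 in Lgr5- and 88.9 in Sox9+ cells. Itga11 made up 49.5%, 20.3% and 19.7% of that sum, and Itga5 31.9%, 37.8% and 35.7%. Without Itga11 the sums were 83.6, 62.9 and 71.4 FPKM. The 8 beta chains summed to 173.6 FPKM in Lgr5+, 168.7 in Lgr5- and 186.6 in Sox9+ cells, and Itgb1 and Itgb5 together held nearly all of each sum.

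Laminin chains were expressed as a set led by Lama4, Lamb1, Lamb2 and Lamc1. None of the 7 measured laminins differed by 2-fold in any pair. Lama4, the alpha chain of vessel walls and mesenchyme, stood at 15.9 FPKM in Sox9+, 11.7 in Lgr5+ and 14.3 in Lgr5- cells and made up 80.4%, 69.8% and 71.2% of the laminin alpha sum. Lama5, a chain of mature epithelial and vessel basement membranes, stayed between 1.6 and 1.96 FPKM, and Lama2, the chain of muscle and nerve, between 1.18 and 1.65 FPKM. Lama1, the chain of early embryonic basement membranes, was highest in Lgr5- cells, at 2.16 FPKM against 1.16 in Lgr5+ and 0.76 in Sox9+ cells, which was 1.80-fold above the Sox9+ library.

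Lamb2, a beta chain of muscle, vessel and nerve basement membranes, was the most even of the measured members, at 36.8 FPKM in Sox9+, 37.2 in Lgr5+ and 36.8 in Lgr5- cells. Lamb1, the more widespread beta chain, took a larger part beside it in the Lgr5 libraries. It stood at 20.8, 25.8 and 32.3 FPKM, so that the ratio of Lamb2 to Lamb1 went from 1.77 in Sox9+ to 1.44 in Lgr5+ and 1.14 in Lgr5- cells. Lamc1, the gamma chain of most laminins, was listed at 16.5, 14 and 20.6 FPKM for these. Summed beta chains exceeded summed alpha chains by 2.95 to 3.77 times. Between the Lgr5 libraries, 5 of the 7 measured laminins were lower in Lgr5+ cells and 2 higher (Lama5 and Lamb2, of which Lamb2 turned lower under 3 of the 4 other scalings), with a median log2 ratio of −0.27 beside 0.08 over all genes, all within 2-fold. Endothelial markers (11 genes, none at 0) summed to 18 FPKM in Lgr5+, 25.3 in Lgr5- and 13.7 in Sox9+ cells. Egfl7 was the largest part of each sum. Kdr and Esam were higher in Lgr5+ than in Lgr5- cells, and the other endothelial markers lower. The part of endothelial cells in the laminin values was not tested.

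Other basement membrane genes were counted from a list of 21. Of 18 measured, 2 were higher and 2 lower in Lgr5+ than in Lgr5- cells, beside 3.64% and 1.89% of all measured genes. The higher ones were Smoc1, at 54.7 against 6.91 FPKM (7.04-fold), and Smoc2, at 211.2 against 54.6 FPKM (3.82-fold), which encode secreted calcium-binding matrix proteins. Both were also higher than in Sox9+ cells, by 5.27-fold and 3.65-fold. The lower ones were Nid1, the nidogen that links laminin to collagen IV, at 12.1 against 26.5 FPKM (2.10-fold), and Frem1 (2.11-fold), which encodes a protein at the base of the epidermis. Against the Sox9+ library, 2 of 18 were higher and 3 lower in Lgr5+ cells, beside 4.33% and 3.96% of all genes. The lower ones were Nid2, the second nidogen, at 17.7 against 55.4 FPKM (3.02-fold), Hspg2, which encodes perlecan of cartilage and basement membranes, at 2.28 against 7.84 FPKM (2.70-fold), and Col15a1 (3.62-fold). Collagen IV chains Col4a1 and Col4a2 and the laminin receptor gene Dag1 stayed within 2-fold in every pair. So did Sparc, the most abundant gene of the list, at 379.9 FPKM in Sox9+, 437.9 in Lgr5+ and 326.4 in Lgr5- cells. In the third pair, Nid1 was higher and Nid2 and Col15a1 lower in Lgr5- than in Sox9+ cells, beside 3.08% and 4.94% of all genes. The medians of this list were −0.41, −0.05 and 0.01 in the 3 pairs.

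The list of other integrin ligands and related genes held 25 genes. Between the Lgr5 libraries 1 of 22 measured was higher and 1 lower in Lgr5+ cells, beside 3.64% and 1.89% of all genes. Tgfb2, a secreted growth factor, was the higher one, at 120.3 against 27.4 FPKM (4.27-fold). Binding of its product to integrins was not measured. Fbn1, a microfibril protein gene that binds integrins by RGD, was the lower one, at 12.3 against 26.5 FPKM (2.06-fold). Fibronectin, Fn1, the ligand of alpha5, was even, at 112.3 FPKM in Sox9+, 122.1 in Lgr5+ and 113.0 in Lgr5- cells. Against the Sox9+ library, 3 of 23 were higher (Tgfb2, Icam1 and Postn) and 7 lower in Lgr5+ cells (Spp1, Ibsp, Tnc, Cyr61, Ctgf, Tgfb1 and Col2a1), beside 4.33% and 3.96% of all genes. The Lgr5- library was higher for 2 of 23 (Vcam1 and Icam2) and lower for 7 (Spp1, Ibsp, Tnc, Thbs1, Cyr61, Ctgf and Col2a1), beside 3.08% and 4.94% of all genes. All genes too gave fewer calls between the Lgr5 libraries than against the Sox9+ library. Ctgf, a matrix-associated signal that binds integrins, stood at 425.5 FPKM in Sox9+, 65.2 in Lgr5+ and 32.8 in Lgr5- cells. The medians were 0.12, 0.39 and 0.12.

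Genes of proteins that couple integrins to actin or associate with them were counted from a list of which 34 were found. Of 30 measured, 4 were higher and 1 lower in Lgr5+ than in Lgr5- cells, beside 3.64% and 1.89% of all genes. Cd9, a tetraspanin that associates with integrins, stood at 296.7 against 105.0 FPKM (2.81-fold), and Nedd9, a docking protein at adhesion sites, at 34.2 against 11.4 FPKM (2.85-fold). Zyx, which encodes zyxin of focal adhesions, and Actn4, an actin crosslinker, passed the line narrowly, at 2.03-fold and 2.01-fold. Tns3, a tensin that links beta chains to actin, was 2.10-fold lower. The core activators Tln1 (29.5 against 33.1 FPKM) and Fermt2 (35.8 against 30.1 FPKM), the scaffold Ilk (141.9 against 105.0 FPKM) and the kinase Ptk2 (32.4 against 28.7 FPKM) lay within 2-fold. In the Lgr5+ library 2 of 30 were higher than in Sox9+ cells (Cd9 and Fermt3) and 1 lower (Lims2), and in Lgr5- cells 2 of 31 were higher (Fermt3 and Parvg) and 1 lower (Lims2), beside the same shares of all genes as given for the ligands. Fermt3 and Parvg are the blood cell forms of kindlin and parvin. Cd81 was the most abundant gene of the list, at 277.3 FPKM in Sox9+, 387.8 in Lgr5+ and 321.2 in Lgr5- cells. It stayed within 2-fold in every pair. The medians were 0.12, 0.20 and 0.09.

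**Figure D4:**
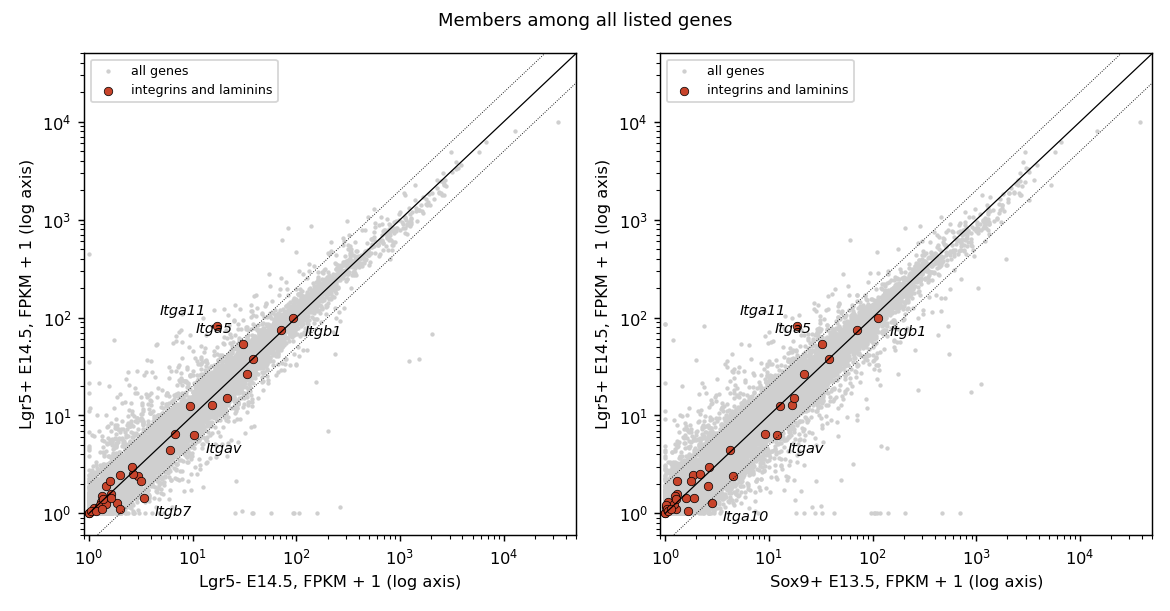
FPKM + 1 (log axes) of all 23284 listed genes in grey and of the 37 members in red, in Lgr5+ cells against the Lgr5- library (left) and the Sox9+ library (right), with a line of equality and dotted lines at 2-fold. Itga11 lies above the upper dotted line in both panels, at 4.86-fold and 4.47-fold, and Itga5 between the lines; Itgb7 lies below the lower line at left and Itga10 at right.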

How the data were processed

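RNA was profiled in 3 libraries, 1 per sorted cell population. Digits were dissociated with TrypLE and DNase, and a SMARTer low-input kit turned 10 ng of RNA into cDNA, per the labels' protocols. The submitters' processing notes name HISAT2 and mm10 (GRCm38). Which tool and annotation gave the values, and how multi-mapping reads were treated, is not stated there. The deposited values are FPKM per gene symbol as made by the authors, rounded to 2 decimals. They are shares of a library, so a few abundant RNAs can shift the rest, and with no counts the depth is unknown.

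Log2 ratios of FPKM + 1 were computed in Python 3.11.15 for the 3 pairs, for all genes whose higher library reached 1 FPKM, and a call was 2-fold or more. The code that makes the calls was checked on simulated data. No test between libraries was run, since each group has 1 library. Every member was to be accounted for, although 1 is not reported by name here, and related genes were named when called or most abundant in their list. One listed symbol was found as Tenc1 and Hic5 was not matched. Gene positions are from GENCODE M21, and the promoter windows from RefSeq. Members and lists were chosen with earlier results of these data known. Alternatives covered the pseudocount, the minimum and 4 scalings.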

Additional observations from a re-analysis of the deposited data

How the results depend on the processing

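No paired analysis was possible because each group has 1 library, and for the same reason no replicate could be left out. The call of Itga11 held in both pairs under all 7 alternatives chosen at the outset, and those of Itga10 and Itgb7 under all but the 5 FPKM minimum, which leaves both genes out. Over 58 log2 ratios of named members, 375 of 383 alternative values stayed on their side of 2-fold and 8 passed it newly. The sign turned under at least 1 alternative in 9 of the 58, the largest of which was 0.12 in size; these were ratios of Itga5, Itga8, Itga9, Itga11, Itgb1, Itgb5, Lama5 and Lamb2.

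With a pseudocount of 0.1 FPKM, 2 members were higher (Itga4 joined) and 3 lower (Itgav and Itgb8 joined) in the Lgr5+ than in the Sox9+ library, and 2 higher (Lama1 joined) and 2 lower (Itga1 and Itga10) in the Lgr5- than in the Sox9+ library. With a minimum of 5 FPKM, 0 were lower in the Lgr5+ library in either pair and 0 higher in the Lgr5- than in the Sox9+ library, since fewer genes are measured. Rescaling to TPM gave 2 lower against the Lgr5- library, 2 higher against the Sox9+ library with a median of 0.17, and for the Lgr5- over the Sox9+ library 3 higher with a median of 0.055. The sum without Rn45s and haemoglobin genes gave 0.052 for that last median. TPM moved the median of all genes to 0.11, 0.21 and 0.11 in the 3 pairs. A call at 1.5-fold, chosen after seeing the data, gave 2 higher and 2 lower between the Lgr5 libraries and 3 and 3 in each of the other pairs. The lower laminin median in the Lgr5+ than in the Lgr5- library kept its sign throughout, from −0.38 to −0.17. Over integrins, median signs varied with the setting in each pair, so no direction is given for them. Depth and the lack of replicates limit what can be said of members near 1 FPKM.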
